A study of Oryctolagus cuniculus with 6 samples.

Results

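The ephrins and their Eph receptors, the slits and their robo receptors, and the netrins with the receptors UNC5, DCC and neogenin were examined in injured rabbit facial nerve with and without an implanted I-125 seed. Members were taken by gene symbol, namely every row named EPHA, EPHB, EFNA, EFNB, SLIT, ROBO, NTN, NTNG or UNC5 with its number or letter, and DCC and NEO1. This gave 39 genes of the 17396 rows in the files, 16 ligands and 23 receptors, of which 15 ligands and 18 receptors had enough counts to be tested. The RNA came from 6 male Japanese white rabbits of wild type genotype, 3 to 4 months old, in which the main trunk of the facial nerve had been cut. In the FNI group (3 rabbits) the wound was closed after the cut, and in the FNI+I-125 group (3 rabbits) a radioactive I-125 seed was left close to the nerve. The libraries of the FNI+I-125 group are called the seed libraries. All nerves were taken on day 14, and oligo dT selected mRNA was sequenced to 16031151 to 16798012 counts per library. Neither group held an uninjured nerve or an inactive seed, so the effects of placing a seed and of its radiation cannot be told apart, and a sham group was not analysed here.

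These genes encode short-range and secreted signals that steer growing axons and migrating cells. Ephrins sit in the membrane of one cell and bind Eph receptor tyrosine kinases on another, which mostly leads to repulsion and to the sorting of cells into groups. Slits are secreted proteins that repel through robo receptors, and netrins attract through DCC and neogenin and repel through UNC5 receptors. Several members also act in blood vessels, among them EFNB2 and EPHB4 in arteries and veins, and ROBO4 and UNC5B in endothelial cells. In a cut nerve, Eph, slit and netrin signals act between Schwann cells, fibroblasts, macrophages and axons at the site of regrowth.

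Most guidance genes had a lower level in the FNI+I-125 group, with few separate enough from the FNI group to stand out. Levels are given as CPM, the usual depth-scaled counts after edgeR's TMM scaling, and differences as the log2 fold change of FNI+I-125 against FNI from edgeR's quasi-likelihood test over 14003 genes. The criteria of the study were an adjusted p under 0.05 and a log2 fold change of at least 1.5 in size. With them, edgeR called 0 members and 0 of all genes tested (0%). The study itself called genes in both directions at these criteria, by a test that it does not name. The smallest adjusted p of any member was 0.280 (Benjamini-Hochberg adjustment of edgeR's p). At an unadjusted p under 0.05, 6 of the 33 members tested were lower (18.2%) and 2 were higher (6.06%), against 7.73% and 9.23% of all genes tested. With DESeq2 at an adjusted p under 0.05 and the same fold criterion, 3 members were lower, EPHA7, NTNG1 and DCC, and 0 were higher, against 1.26% and 2.08% of the genes it tested. Without a fold criterion, ROBO4 and UNC5B also passed in DESeq2, and the share of all genes that did so was not counted.

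The libraries of the FNI group lay wholly above those of the FNI+I-125 group for 9 members (27.3%), and wholly below for 2 (6.06%), against 12.3% and 14.8% of all genes tested. The log2 fold change was below 0 for 28 of the 33 members and for 6842 of the 14003 genes, and its median was -0.31 over the members and 0.01 over all genes. All 15 ligands tested were on the lower side, as were 13 of the 18 receptors. With all libraries in, these counts were the same under TMM, library size, upper-quartile and DESeq2 scaling and without muscle and gland genes in the library sizes. Leaving out 1 library could move ligands to the other side. The log2 fold change was 0.24 for NTN4 without FNI replicate 3 and 0.31 for SLIT1 without FNI replicate 2. It was 0.04 for EFNA5 and 0.16 for SLIT1 without seed replicate 2, and 0.09 for NTN4 and SLIT1 without seed replicate 3. FNI replicate 3 was the highest of the 6 libraries for 7 of the 15 ligands. The 11 members without overlap were DCC, NTNG1, SLIT2, EPHA7, NTN3, ROBO4, EFNA3, NEO1 and EFNB2 on the lower side and UNC5B and ROBO2 on the higher side. For a single gene, an exact permutation test of 3 libraries against 3 cannot give a p below 0.1.

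**Figure D1:**
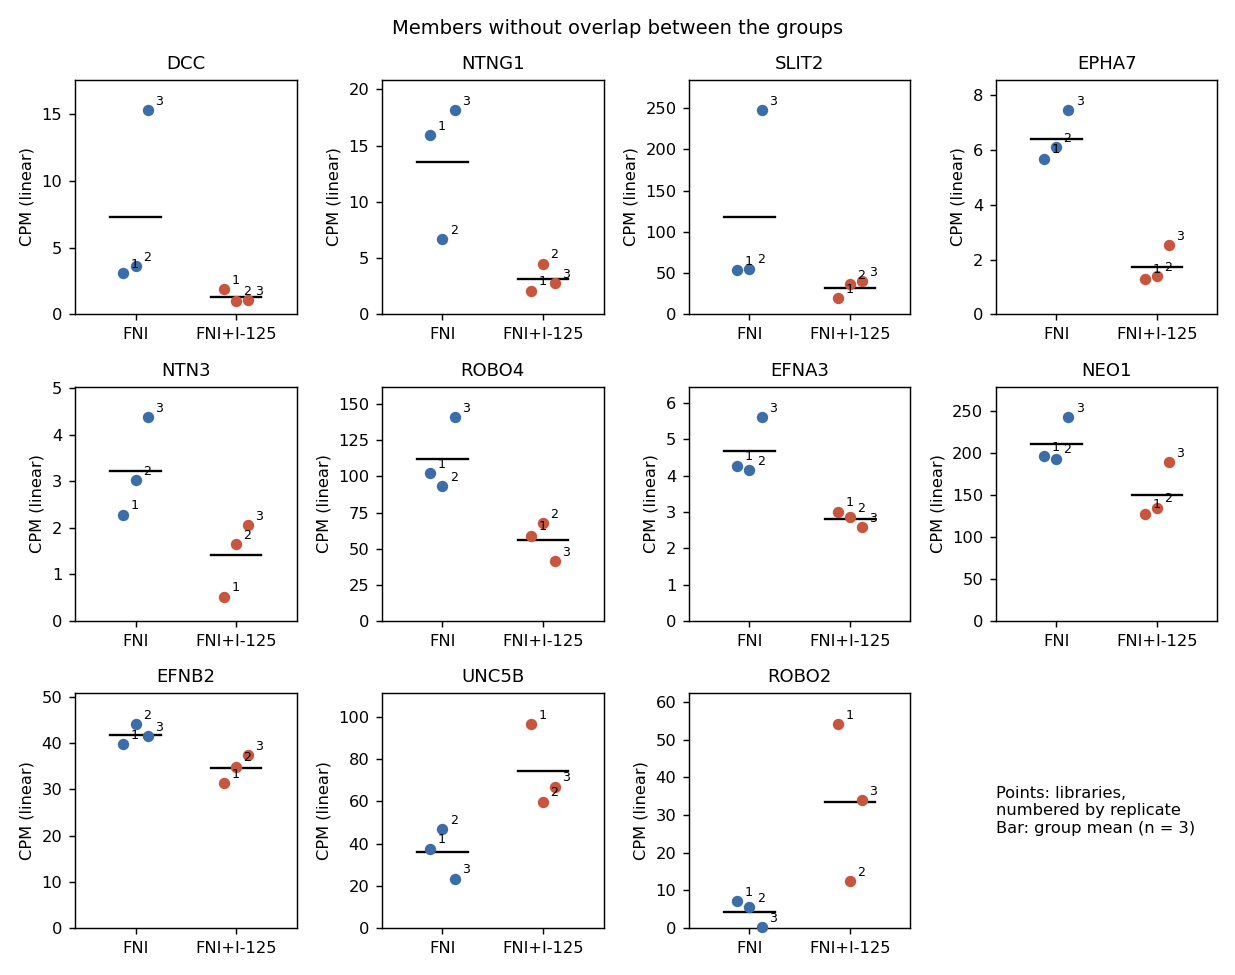
CPM on a linear axis for the 11 members whose groups do not overlap, with 1 point per library numbered by replicate and a bar at the mean of each group (n = 3). FNI replicate 3 stands far above the other FNI libraries for SLIT2 and DCC, while EPHA7, ROBO4 and UNC5B separate the groups with less spread.

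The libraries also differed in transcripts that mark cell types and neighbouring tissues, and beyond the ratios to Schwann cell and endothelial genes given below, the part of these in the values of the members was not tested. Schwann cell genes such as SOX10 and S100B were present in every library. Summed over 13 myelin genes, the FNI libraries held 3220 to 41800 CPM, with the top value in FNI replicate 3, and the seed libraries 501 to 3510 CPM. The 9 genes of Schwann cells in any state summed to 2010 to 2720 CPM against 464 to 1990 CPM, lowest in seed replicate 1. All 9 were lower in FNI+I-125, 1 of them at an unadjusted p under 0.05 in edgeR. Of 7 repair Schwann cell genes tested, 6 were higher, 0 of them at such a p, and 1 was lower at such a p. With 8 genes summed, repair genes stood at 159 to 295 CPM against 217 to 435 CPM. FNI replicate 3 was lowest for them, and for the macrophage genes below. The 5 perineurial genes summed to 463 to 1340 CPM against 199 to 532 CPM, with 4 lower, 2 of them at such a p. The 14 endothelial genes summed to 2880 to 3510 CPM against 2090 to 3320 CPM, with 12 of 14 lower and 5 at an unadjusted p under 0.05. Macrophage genes ran the other way, at 289 to 1020 CPM against 1170 to 1780 CPM over 8 genes, as did 7 T cell genes, at 4.91 to 38.9 CPM against 41.3 to 129 CPM. The 6 adipocyte genes were all lower, at 1640 to 4740 CPM against 1030 to 1560 CPM. Skeletal muscle genes summed to 8050 and 7240 CPM in seed replicates 1 and 2 and to 295 to 483 CPM elsewhere, and salivary gland genes to 57400 CPM in FNI replicate 2 and 24.2 to 3530 CPM elsewhere. No marker of any list was at 0 in all libraries. In such bulk samples, fewer cells of a type and less RNA per cell cannot be told apart.

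Among the 7 ephrin ligands, EFNA3 was the one at an unadjusted p under 0.05, and EFNA3 and EFNB2 were without overlap. EFNA3, a ligand anchored to the membrane by a lipid, stood at 4.28, 4.16 and 5.62 CPM in FNI replicates 1, 2 and 3 and at 3.01, 2.86 and 2.58 CPM in seed libraries 1, 2 and 3. The highest seed library was under the lowest FNI library, with a log2 fold change of -0.73 (SE 0.26), but the unadjusted p in edgeR was over 0.05 (0.0563 to 0.0937) when any 1 library was left out. EFNA1, another anchored ligand, which is induced in inflamed endothelium, overlapped, at 62.7, 61.4 and 45.0 CPM against 60.4, 44.4 and 42.3 CPM (log2 fold change -0.20, SE 0.20). EFNA5, a ligand that repels axons in many tissues, was spread most widely in the FNI+I-125 group, at 14.6, 7.36 and 30.4 CPM against 19.97, 18.3 and 25.8 CPM in the FNI group. Its log2 fold change of -0.29 (SE 0.50) was 0.04 without seed replicate 2 and -0.97 without seed replicate 3. EFNA4 overlapped as well, between 1.48 and 5.04 CPM in the FNI libraries and between 1.46 and 4.52 CPM in the seed libraries. EFNA1, EFNA3 and EFNA4 are neighbours in the RefSeq annotation of rabbit, and of these EFNA3 alone was without overlap.

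EFNB2, the transmembrane ephrin of arterial endothelium, differed by little but without overlap. It had 39.7, 44.2 and 41.6 CPM in the FNI libraries, compared with 31.4, 34.9 and 37.4 CPM in the seed libraries, a log2 fold change of -0.28 (SE 0.12). EFNB1, which signals through its own cytoplasmic tail as well as to EphB receptors, stood at 77.2, 80.4 and 144 CPM against 73.6, 83.0 and 83.1 CPM, so the difference of the means rested on FNI replicate 3. EFNB3 was near the lower limit of the test, at 0.937 to 2.96 CPM in the FNI group and 0.730 to 1.23 CPM in the FNI+I-125 group.

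Of the slits, SLIT2 had the larger difference and SLIT3 little. SLIT2, which repels axons and migrating cells through ROBO1 and ROBO2, had 53.2, 55.1 and 247 CPM in FNI replicates 1, 2 and 3. In seed libraries 1, 2 and 3 it had 19.4, 36.1 and 40.3 CPM, all below the lowest FNI library. The log2 fold change was -1.89 (SE 0.70), and without FNI replicate 3, the library with the most myelin transcripts, it was -0.78 (SE 0.32) with an unadjusted p of 0.0595 in edgeR. Leaving out seed replicate 1, 2 or 3 also took that p over 0.05 (0.105, 0.0745 and 0.0601). SLIT3 took the most counts of all members, at 660, 790 and 654 CPM in the FNI libraries, compared with 663, 685 and 436 CPM in the seed libraries. The groups overlapped, since seed replicates 1 and 2 lay among the FNI libraries and replicate 3 alone was below them (log2 fold change -0.24, SE 0.22). SLIT1, known mainly from the nervous system, stayed between 0.761 and 1.90 CPM in all libraries.

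In the netrin family the lipid-anchored NTNG1 differed most, and the secreted NTN1 and NTN4 did not separate the groups. NTNG1, which binds a leucine-rich repeat partner in place of DCC or UNC5, stood at 15.9, 6.68 and 18.1 CPM in the FNI libraries, compared with 2.09, 4.50 and 2.76 CPM in the seed libraries. It was 4.35-fold lower, with a log2 fold change of -2.12 (SE 0.48) and an unadjusted p of 0.0047 in edgeR, and it kept an unadjusted p under 0.05 with any 1 library left out. Its relative NTNG2 overlapped, at 9.55, 9.89 and 14.5 CPM against 6.28, 10.8 and 9.28 CPM. NTN3, a secreted netrin with few counts here, was at 2.28, 3.02 and 4.37 CPM against 0.523, 1.64 and 2.06 CPM, without overlap (log2 fold change -1.19, SE 0.57).

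NTN1, the axon attractant for which the family is known, had 81.6, 78.4 and 89.4 CPM in the FNI libraries. The seed libraries reached from 41.0 CPM in replicate 1 over 64.5 CPM in replicate 2 to 100.2 CPM in replicate 3, which lay above all FNI libraries (log2 fold change -0.28, SE 0.32). Without seed replicate 3 the log2 fold change of NTN1 was -0.66 (SE 0.24), at an unadjusted p of 0.0381 in edgeR, and without seed replicate 1 it was -0.01 (SE 0.22). NTN4, a basement membrane netrin that binds laminin, took the most counts of the family and differed between the groups by less than its spread. It stood at 99.5, 76.4 and 141 CPM against 118, 108 and 88.8 CPM, with a log2 fold change of -0.01 (SE 0.25).

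**Figure D2:**
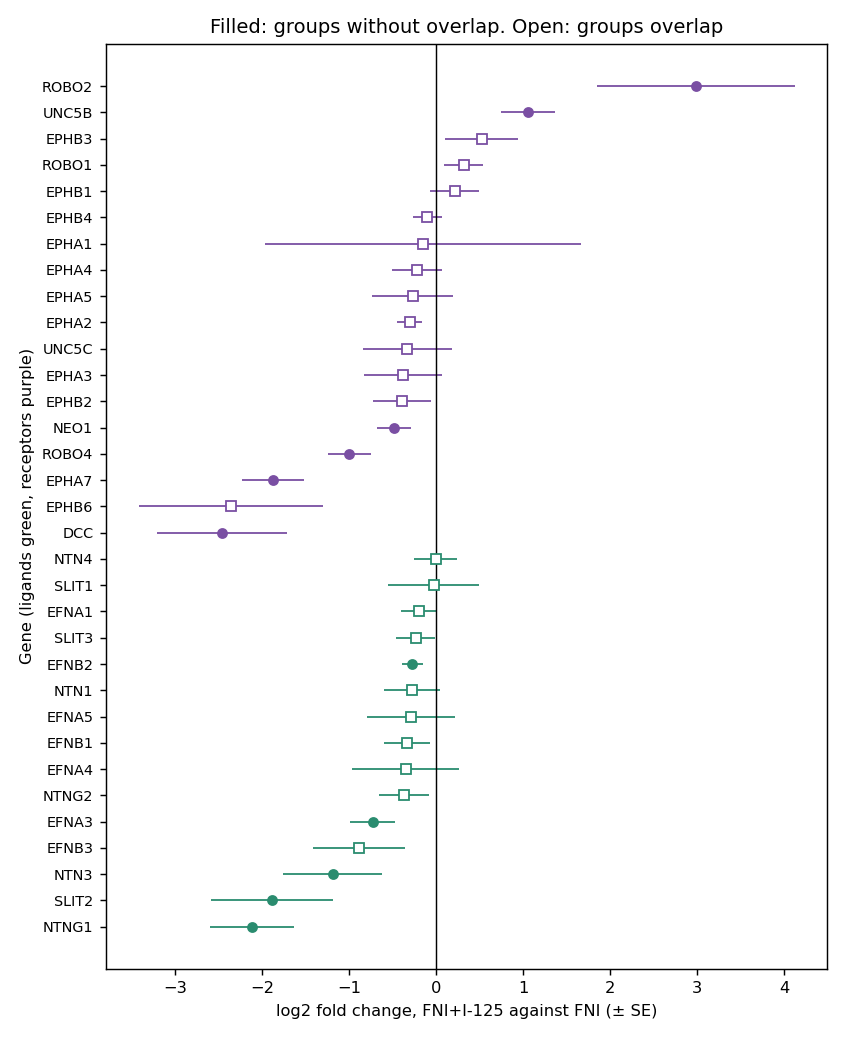
Log2 fold change of FNI+I-125 against FNI, with 1 standard error to each side, for the 18 receptors (purple) and 15 ligands (green) tested. Filled points are genes whose groups do not overlap. All ligands sit at or left of 0, while ROBO2 and UNC5B are the filled points on the right.

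EPHA7 had the smallest p-value of all members. This receptor, whose short forms can turn ephrin repulsion into adhesion, had 97, 97 and 126 counts in FNI replicates 1, 2 and 3 and 20, 23 and 43 counts in seed libraries 1, 2 and 3. That is 5.68, 6.11 and 7.45 CPM against 1.31, 1.40 and 2.52 CPM. The highest FNI+I-125 library thus stayed below the lowest FNI library, with an average 3.66-fold lower level (log2 fold change -1.87, SE 0.36). The unadjusted p was 0.00189 in edgeR, and DESeq2 gave an adjusted p of 5.0e-04. When any single library was dropped, the log2 fold change of EPHA7 stayed between -2.24 and -1.70, and the unadjusted p stayed under 0.05.

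The other EphA receptors did not separate the groups. EPHA3, which took the most counts of the EphA receptors, was at 57.0, 72.6 and 20.2 CPM in the FNI libraries, compared with 44.8, 34.5 and 35.6 CPM in the seed libraries. FNI replicate 3 was the lowest of all 6 libraries for it, and the same held for EPHA5, with 15.8, 19.5 and 5.38 CPM against 11.4, 9.68 and 12.6 CPM. Without that library, the log2 fold change was -0.78 (SE 0.18) for EPHA3 and -0.67 (SE 0.19) for EPHA5, with unadjusted p values of 0.00698 and 0.0166 in edgeR. Without FNI replicate 2 the log2 fold change was -0.01 for EPHA3 and 0.08 for EPHA5. EPHA2, an epithelial and endothelial receptor for EFNA1, had 37.4, 43.3 and 35.8 CPM against 36.0, 28.8 and 29.5 CPM, where seed replicate 1 just reached into the FNI range. EPHA4, a receptor for ephrins of both classes, ranged from 22.2 to 38.1 CPM in the FNI group and from 19.2 to 33.6 CPM in the FNI+I-125 group.

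The EphB receptors overlapped between the groups in every case. EPHB2, the receptor by which Schwann cells respond to ephrin-B on nerve fibroblasts, had 142, 183 and 73.6 CPM in the FNI libraries, compared with 88.2, 111 and 105 CPM in the seed libraries. FNI replicate 3 was again lowest, and without it the log2 fold change went from -0.39 (SE 0.33) to -0.70 (SE 0.17), at an unadjusted p of 0.00977 in edgeR. Without FNI replicate 2 it was -0.09 (SE 0.31). EPHB3 leaned the other way, at 65.3, 74.0 and 27.4 CPM against 97.2, 52.9 and 89.5 CPM, and its log2 fold change of 0.52 (SE 0.42) became 0.18 (SE 0.28) without FNI replicate 3. EPHB4, the venous partner of EFNB2, was steady at 107, 96.6 and 89.7 CPM against 110, 75.7 and 87.5 CPM (log2 fold change -0.10, SE 0.17). EPHB1 also varied little, between 2.23 and 3.27 CPM over all libraries.

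EPHB6, an Eph receptor without kinase activity, had a large but uneven difference. The FNI libraries stood at 12.2, 5.54 and 21.0 CPM, and the seed libraries at 0.784, 0.487 and 6.22 CPM. Seed replicate 3 lay just above FNI replicate 2, so the groups overlapped, with a log2 fold change of -2.36 (SE 1.06). Without seed replicate 3 the log2 fold change was -4.34 (SE 0.75), at an adjusted p of 0.183 in edgeR's quasi-likelihood test. With any other library left out it lay between -2.73 and -1.85, at an unadjusted p of 0.0624 to 0.163 in edgeR. Seed replicates 1 and 2, which were low for EPHB6, are those with high skeletal muscle transcripts. They also held the least of 11 keratinocyte and epithelial genes, 42.0 and 55.5 CPM against 190 to 1920 CPM elsewhere. The part of muscle or epithelial content in the EPHB6 values was not tested.

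**Figure D3:**
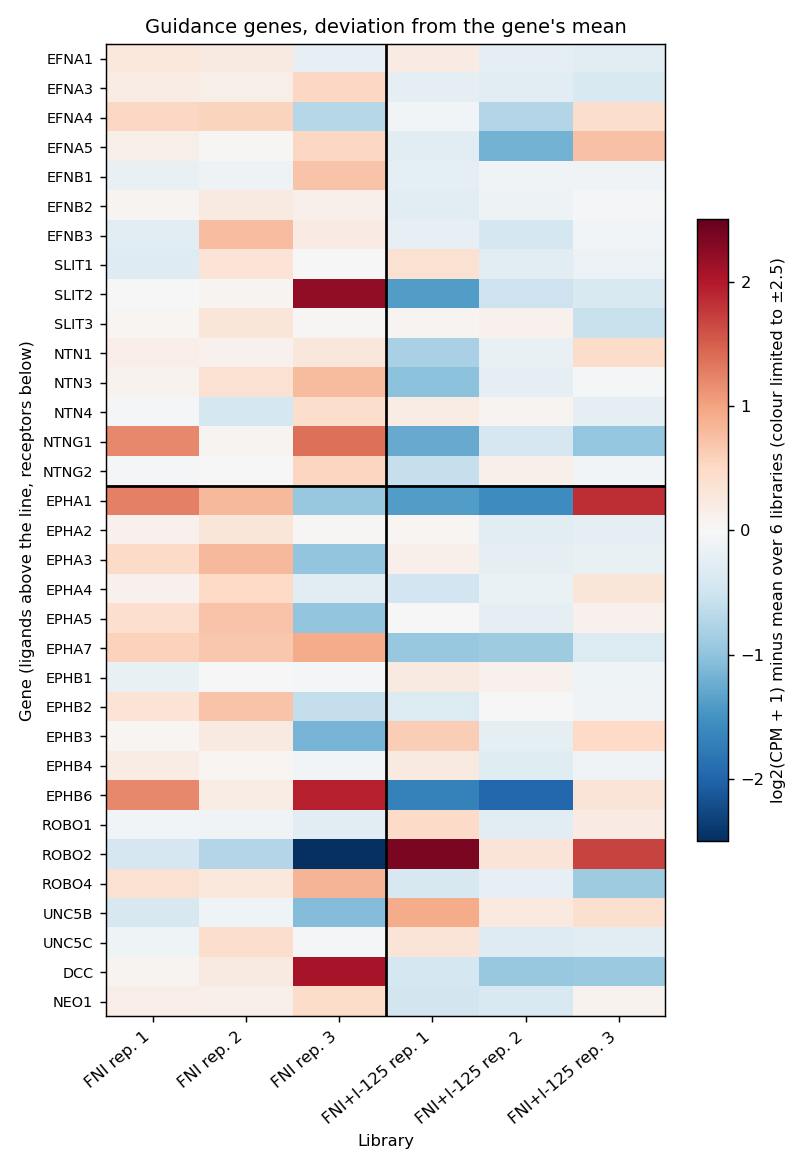
Log2(CPM + 1) of each tested member in each library, shown as the deviation from the gene's mean over all 6 libraries (blue lower, red higher, colour limited to 2.5 to each side), with ligands above the horizontal line and receptors below it. SLIT2, DCC and EPHB6 are highest in FNI replicate 3, where ROBO2, EPHA3, EPHA5, EPHB2, EPHB3 and UNC5B are lowest.

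The robo receptors went in different directions. ROBO4, an endothelial receptor that stabilises vessels, stood at 102, 93.4 and 141 CPM in the FNI libraries, compared with 59.0, 67.7 and 41.6 CPM in the seed libraries. The groups did not overlap, and the means were 112 ± 25.3 against 56.1 ± 13.3 CPM (SD, n = 3), with a log2 fold change of -1.01 and an adjusted p of 0.0162 in DESeq2. When any single library was dropped, edgeR's log2 fold change of ROBO4 stayed between -1.18 and -0.82. Since endothelial genes were lower as well, ROBO4 was also set against the sum of the endothelial list. Per 1000 CPM of that sum it had 29.1, 32.4 and 47.3 CPM in the FNI libraries, compared with 17.8, 28.4 and 19.9 CPM in the seed libraries, again without overlap. VWF took the most of that sum, with 1900, 1480 and 1310 CPM in FNI and 1800, 1220 and 1200 CPM in seed libraries. Its log2 fold change was -0.16, against -1.11 for CLDN5, -0.74 for MMRN2, -0.56 for TEK, -0.55 for TIE1 and -0.54 for ESAM. These last 5 had an unadjusted p under 0.05 in edgeR, and 2 of the 14 genes were above 0. Whether ROBO4 was lower than such single endothelial genes was not tested.

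ROBO2, a slit receptor known from axons, had the largest difference of the members on the higher side. Of 10 neuron genes looked up in the same libraries, 3 had enough counts to be tested, and which cells held the ROBO2 transcripts was not tested. It had 120, 87 and 3 counts in FNI replicates 1, 2 and 3, or 7.03, 5.48 and 0.177 CPM, and 829, 204 and 577 counts in seed libraries 1, 2 and 3, or 54.2, 12.4 and 33.9 CPM. All seed libraries lay above the FNI libraries, but with a wide spread on both sides (log2 fold change 2.98, SE 1.13). The count of 3 in FNI replicate 3 is at the level that a count of 0 would allow, and with that library dropped the log2 fold change was 2.39 (SE 0.66), at an unadjusted p of 0.0148 in edgeR. That p was above 0.05 when FNI replicate 1 or 2 or seed replicate 1 or 3 was left out, to at most 0.11. ROBO1, the neighbour of ROBO2 in the RefSeq annotation and a slit receptor as well, had 24.4, 23.8 and 21.0 CPM against 35.8, 20.7 and 29.5 CPM and overlapped through seed replicate 2.

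UNC5B, a netrin receptor of endothelium that also binds ROBO4, was higher in the FNI+I-125 group. It had 37.6, 46.7 and 23.2 CPM in the FNI libraries, compared with 96.7, 59.8 and 66.9 CPM in the seed libraries, a 2.08-fold higher level without overlap. The log2 fold change was 1.06 (SE 0.31) with an unadjusted p of 0.0144 in edgeR, and DESeq2 gave an adjusted p of 0.046. It stayed between 0.80 and 1.29 with each library left out, with an unadjusted p under 0.05 in each case. Per 1000 CPM of the endothelial list, UNC5B stood at 10.7, 16.2 and 7.80 CPM against 29.1, 25.1 and 32.0 CPM, again without overlap. The endothelial sum was lower on average in the FNI+I-125 group, so dividing by it moved all genes upwards there. Against that sum, 22.1% of all genes tested were higher without overlap, compared with 14.8% in CPM. Macrophage genes were higher in the seed libraries as well, and UNC5B was not set against them. UNC5C ranged from 0.791 to 2.02 CPM over all libraries and did not separate the groups.

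DCC and NEO1, related netrin receptors, were both lower without overlap. DCC, through which netrin attracts axons, reached 53, 57 and 259 counts in FNI nerves, compared with 29, 17 and 18 counts in the seed libraries. This was 3.10, 3.59 and 15.3 CPM against 1.90, 1.03 and 1.06 CPM, so FNI replicate 3 was far above all others. The log2 fold change was -2.46 (SE 0.74), or -1.35 (SE 0.44) without FNI replicate 3, and DESeq2 gave an adjusted p of 0.0279 with all libraries. Without seed replicate 2 or 3 the unadjusted p of DCC in edgeR was 0.0554 and 0.0515. NEO1, which also binds repulsive guidance molecules, had 196, 194 and 243 CPM against 128, 135 and 189 CPM. Here seed replicate 3 came within a few CPM of the lowest FNI library, and the log2 fold change of NEO1 was -0.49 (SE 0.20), with an unadjusted p of 0.0501 in edgeR.

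The remaining 6 members had too few counts to be tested. EPHA6 had 1 to 26 counts in the FNI libraries and 1 to 15 in the seed libraries, and UNC5A had 4 to 8 against 4 to 15. NTN5 had 0 to 10 counts per library, UNC5D 0 to 5 and ROBO3 0 to 3. EPHA8 had 1 count in FNI replicate 2 and 0 in every other library, where a count of 0 allows up to 3 counts, or 0.176 to 0.196 CPM, for counting error only.

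Ligands and receptors were then compared as sets. Over the 15 ligands tested, the mean log2(CPM + 1) was 4.40, 4.46 and 4.74 in the FNI libraries, compared with 3.92, 3.99 and 4.18 in the seed libraries, without overlap. Over the 18 receptors it was 4.52, 4.58 and 4.10 against 4.25, 3.88 and 4.42, with overlap. Ligands minus receptors gave -0.12, -0.11 and 0.64 in the FNI libraries, compared with -0.33, 0.11 and -0.24 in the seed libraries. FNI replicate 3, with the highest ligand and the lowest receptor mean of its group, set the difference between the groups, which was -0.29 with it and -0.04 without it. These means are scores over chosen genes and were given no test.

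**Figure D4:**
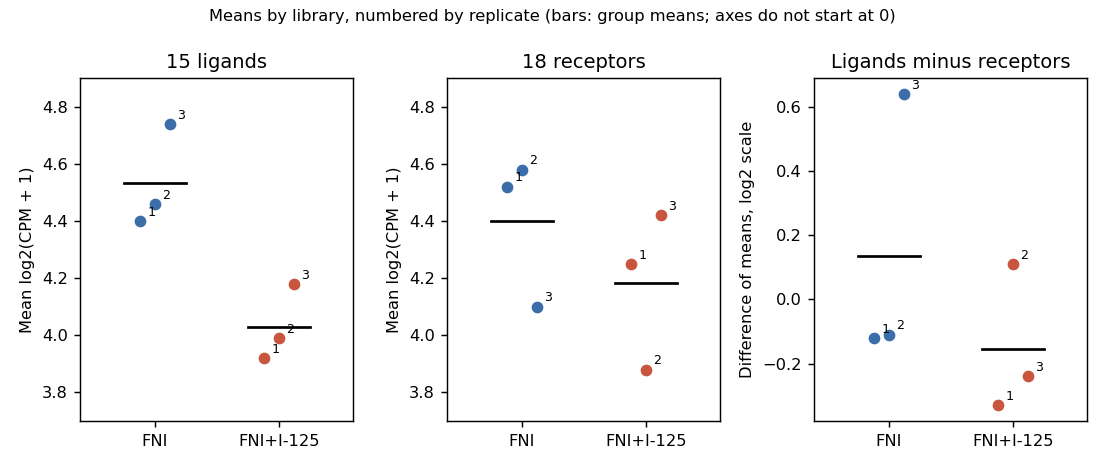
Mean log2(CPM + 1) over the 15 ligands and the 18 receptors tested, and the ligand mean minus the receptor mean, in each library (points numbered by replicate, bars at group means, n = 3, axes not starting at 0). The ligand means separate the groups and the receptor means do not, and FNI replicate 3 stands alone in the difference at 0.64.

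A ratio of 2 genes within a library depends little on how libraries are scaled, so 14 pairs of proteins known to bind each other were compared as log2((CPM + 1)/(CPM + 1)). Since gene lengths differ, only the change of a ratio between the groups is read. Of the 14 pairs, 5 separated the groups fully. Each of these 5 holds at least 1 member that was without overlap by itself, so the ratios are no independent result. The share of other gene pairs that would separate the groups was not computed. The SLIT2 to ROBO2 ratio was 2.76, 3.11 and 7.72 in the FNI libraries, compared with -1.44, 1.47 and 0.24 in the seed libraries, a difference of -4.44. For SLIT2 to ROBO1 it was 1.10, 1.18 and 3.49 against -0.86, 0.78 and 0.44, a difference of -1.80. Both SLIT2 ratios were lower in every seed library than in any FNI library, and without FNI replicate 3 the differences were -2.84 and -1.02. The SLIT3 to ROBO1 ratio overlapped, at 4.70, 5.00 and 4.89 against 4.17, 4.98 and 3.84.

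The NTN1 to UNC5B ratio moved the same way, from 1.10, 0.74 and 1.90 to -1.22, 0.11 and 0.58, a difference of -1.42. The UNC5B to ROBO4 ratio, which sets the endothelial pair against each other, went from -1.42, -0.99 and -2.55 to 0.70, -0.18 and 0.67, a difference of 2.05. For EFNA5 to EPHA7 the ratio was 1.65, 1.44 and 1.67 against 2.76, 1.80 and 3.15, a difference of 0.99. Each of these 5 pairs had an exact permutation p of 0.1, the smallest that 3 libraries against 3 allow, and 0.28 after Benjamini-Hochberg adjustment over the 14 pairs. The ratios of EFNB2 to EPHB4, EFNA1 to EPHA2, EFNB1 to EPHB2 and NTN1 to NEO1 differed by -0.16, 0.10, 0.03 and 0.13, with overlap (exact permutation p of 0.5 to 1). The other 5 pairs overlapped as well, with larger differences of 1.19 for NTN1 to DCC, -1.05 for EFNB3 to EPHB3, -0.53 for SLIT3 to ROBO1, 0.53 for NTN4 to NEO1 and -0.25 for EFNA5 to EPHA4.

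**Figure D5:**
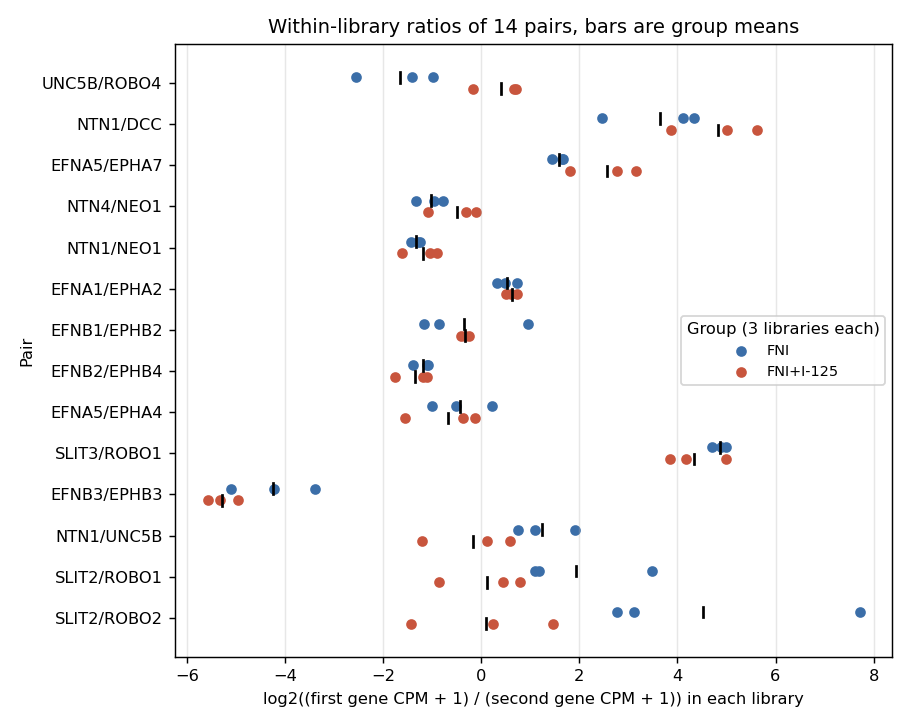
Log2 ratio of the CPM (with 1 added) of the first to the second gene of 14 pairs in each library, with FNI in blue, FNI+I-125 in red and bars at the group means (n = 3). The groups are apart for UNC5B/ROBO4, EFNA5/EPHA7, NTN1/UNC5B, SLIT2/ROBO1 and SLIT2/ROBO2 and overlap for the other 9 pairs.

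The members were also set against the sum of the 9 Schwann cell genes and of the 14 endothelial genes instead of the library total. Both sums were lower on average in the FNI+I-125 group, so the division moved all genes upwards there. Against the Schwann cell sum, 39.5% of all genes tested were higher without overlap and 0.3% lower, and against the endothelial sum 22.1% and 1.62%. Of the 33 members, 5 were higher against the Schwann cell sum, EPHB3, NTN1, ROBO1, ROBO2 and UNC5B, and 0 were lower. For 4 of the 9 members that were lower per library total, the mean per 1000 CPM of Schwann cell genes was on the other side, at 92.1 CPM in FNI against 160 CPM in FNI+I-125 for NEO1, 18.5 against 38.1 CPM for EFNB2, 48.5 against 67.4 CPM for ROBO4 and 2.04 against 3.36 CPM for EFNA3. For each of these 4 genes, the value exceeded the FNI range in seed replicates 1 and 2. It was largest in seed replicate 1, which held the lowest Schwann cell sum (464 CPM). Seed replicate 3 went below the FNI range for ROBO4, at 20.8 CPM against 46.5 to 51.9 CPM. The same held for EFNA3, at 1.3 CPM against 1.97 to 2.07 CPM. For NEO1 and EFNB2, seed replicate 3 was within the FNI range, so the 3 seed libraries did not move together. EPHA7 had 2.62, 3.04 and 2.74 CPM in the FNI libraries, compared with 2.82, 1.12 and 1.27 in the seed libraries, where replicate 1 alone reached the FNI range. Against the endothelial sum, DCC, EPHA7, NTNG1 and ROBO4 were lower without overlap, and EPHB1, ROBO1, ROBO2 and UNC5B were higher, of which EPHB1 and ROBO1 overlapped in CPM.

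Genes that work with these families were taken from a list of co-receptors, cleavage enzymes, adaptors, regulators of small GTPases and actin effectors. Of 88 tested, 44 had a log2 fold change above 0 and 44 below. In edgeR, 11 were higher and 12 lower at an unadjusted p under 0.05 (12.5% and 13.6%, against the 9.23% and 7.73% of all genes). Lowest in p on the lower side were ARHGEF28, a guanine nucleotide exchange factor, with 23.0, 18.1 and 23.1 CPM against 8.37, 8.89 and 11.6 CPM, and ABLIM3, an actin-binding protein, with 101, 130 and 168 CPM against 51.2, 65.9 and 47.2 CPM. They were followed by NDST1, which sulphates the heparan chains that slits bind (log2 fold change -0.59, SE 0.13), and LRRC4B of the netrin-G ligand family (-1.88, SE 0.51).

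On the higher side came VAV3, an exchange factor downstream of Eph receptors, with 19.4, 18.6 and 13.2 CPM against 41.2, 27.5 and 41.0 CPM. SDC4, a heparan sulphate carrier (log2 fold change 0.51, SE 0.12), ADAM17, a protease that sheds surface proteins (0.73, SE 0.17), and EXT1, which builds heparan chains (1.01, SE 0.28), followed. These 8 genes, picked for the smallest p-values, were without overlap between the groups, and their adjusted p was 0.280 in edgeR's quasi-likelihood test. Of all 88 genes tested from the list, 22.7% were higher and 17% lower without overlap, against 14.8% and 12.3% of all genes. Among the further ligands and co-ligands on the list, 9 of 11 had a log2 fold change below 0, the exceptions being FLRT1 (0.08) and FLRT3 (0.13), and among the 20 actin effectors 13 were above 0.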

How the data were processed

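Per the labels, total RNA was made into stranded mRNA libraries and sequenced on an Illumina HiSeq instrument. The submitters' processing notes name HISAT2 and the build OryCun 2.0. The counting program and its strand setting are not given in the sources used here. The deposited files hold raw counts, whole numbers per gene for each library, without normalization; 25 rows named as dates (0.188% of counts) were kept. RefSeq names and gene order were from assembly mOryCun1.1, so no coordinates are given, and no sequences are printed. 1 row with a LOC number, which RefSeq names EPHA10, had too few counts and is no member.

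The main test was edgeR 4.0.16 in R 4.3.3 (glmQLFit, glmQLFTest, TMM, filterByExpr with a minimum count of 10) on 14003 genes, with two-sided p-values adjusted by Benjamini-Hochberg. DESeq2 1.42.0 and limma 3.58.1 (voom) were alternatives, beside other scalings, filters, the replicate block and dropping 1 library at a time. CPM used the TMM library sizes. SE is the log2 fold change divided by the root of the F statistic. Pair ratios were tested by an exact permutation test over 20 splits.

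Values per library are given for members at an unadjusted p under 0.05, without overlap, with the most counts of a family, or in a pair without overlap. Further members and EPHB6, and the values relative to marker sums, were chosen after their values were seen. For partner genes the 4 smallest p-values per direction are named. Members and lists were chosen with earlier results of these data known. The tests were tested on simulated data. Each library is taken as 1 rabbit, as the methods give 3 animals per group.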

Additional observations from a re-analysis of the deposited data

How the results depend on the processing

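The direction of the log2 fold change was kept for all 11 members without overlap in DESeq2, limma-voom, every scaling and filter tried, the replicate block and every left-out library, except that ROBO2 and NTN3 were not tested with at least 10 counts in every library. These 11 were picked for groups without overlap, so a reversal was hardly possible and the kept direction is no independent result. EPHA7, NTNG1, ROBO4 and UNC5B kept an unadjusted p under 0.05 in all of these fits. DESeq2 called 3 members at the adjusted p, where edgeR called 0. With at least 10 counts in every library, 1 member was higher at an unadjusted p under 0.05 in place of 2, since ROBO2 was left out. With the replicate block it was also 1, and 7 were lower. Deviations of same-numbered libraries correlated at 0.0519, -0.191 and -0.137, where the highest value with another number was 0.187, 0.132 and 0.305. With 3 libraries per group this cannot decide whether the numbers pair the samples. With each library left out, 1 to 3 members were higher and 3 to 8 lower at an unadjusted p under 0.05, fewest lower (3) without FNI+I-125 replicate 2, against 6 to 8.2% and 3.71 to 7.51% of all genes. Without overlap, 2 to 4 were higher and 10 to 15 lower, against 18.2 to 21% and 16 to 19.6% of all genes. Partner genes gave 7 to 11 higher and 7 to 12 lower. Relative to marker sums, chosen after seeing the data, 4 members were higher and 4 lower without overlap against the endothelial list, and 5 and 0 against the Schwann cell list, where 22.1% and 1.62%, and 39.5% and 0.3%, of all genes were. Strand use in counting is unknown, so reads of antisense transcripts cannot be told apart, and members under about 3 CPM (EFNB3, EPHB1, NTN3, SLIT1, UNC5C) rest on few counts.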

Other observations

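EPHA1, an Eph receptor of epithelia, had the largest standard error of the log2 fold change among the tested members. It had 6.15, 4.22 and 0.532 CPM in FNI replicates 1, 2 and 3 and 0.131, 0 and 9.63 CPM in FNI+I-125 replicates 1, 2 and 3 (log2 fold change -0.16, SE 1.82). Without FNI+I-125 replicate 3 the log2 fold change was -5.69 (SE 1.63), and with any other library left out it lay between -0.71 and 0.45. The sum of 11 keratinocyte and epithelial genes stood at 1260, 407 and 190 CPM in the same FNI libraries and at 42.0, 55.5 and 1920 CPM in the FNI+I-125 libraries, in nearly the same order as EPHA1. The part of epithelial content in the EPHA1 values was not tested.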
